A study of Rattus norvegicus with 6 samples.

Results

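The amino acid and oligopeptide transporters of the renal tubule were followed in the cortex of rats given ethylenediamine, a small diamine. The set holds 10 genes, Slc3a1, Slc3a2, Slc7a7, Slc7a8, Slc7a9, Slc6a18, Slc6a19, Slc1a1, Slc16a10 and Slc15a2, of the 11530 genes tested on the array, and was listed by gene name, with earlier results of these data known. All 10 were found, through 14 probes whose RefSeq accession leads to one of these symbols. The treated group was 3 male Sprague-Dawley rats that received ethylenediamine dihydrochloride at 500 mg/kg/day for 4 weeks, and the other was 3 male rats of the same strain that received water for 4 weeks. All were bought at 5 weeks of age and kept on the same basal diet, and 1 array was hybridised per animal. Each level below is a log2 intensity relative to the 75th percentile of its array, and each difference is ethylenediamine minus water on that log2 scale.

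Filtered amino acids are taken back almost completely in the proximal tubule. Carriers in the brush border, the apical side that faces the urine, draw them into the cell with sodium or by exchange, and carriers in the basolateral membrane pass them on to the blood. Several of these carriers are heteromers, in which a heavy chain (Slc3a1 or Slc3a2) brings a light chain of the Slc7 family to the membrane. In humans, loss of the SLC3A1 and SLC7A9 pair causes cystinuria, loss of SLC7A7 lysinuric protein intolerance, and loss of SLC6A19 Hartnup disorder.

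All 14 probes were well above background on all 6 arrays, and 0 were saturated or carried an outlier flag. By limma with Benjamini-Hochberg adjustment over the 11530 genes, 0 of the 10 transporters passed an adjusted p of 0.05, as did 0 genes in all (0% in each direction, smallest adjusted p 0.0973). Their adjusted p ran from 0.333 to 0.974. At an unadjusted p under 0.05, 2 transporters were higher (Slc15a2 and Slc6a18) and 4 were lower (Slc16a10, Slc7a8, Slc6a19 and Slc3a2), or 6 of 10, where the share of all genes was 10.4% (5.39% higher and 4.97% lower). Tested as separate probes, 3 of the 14 were higher and 4 lower at that level (4.85% and 5.84% of all probes), 0 passed the adjusted threshold (0.0106% of all probes, all of them higher), and 3 and 5 did not overlap on the higher and lower side (8.43% and 9.57%). The 3 treated and the 3 water gene values did not overlap for these same 6 transporters, against 17.5% of all genes (9.2% higher and 8.27% lower). The median absolute log2 fold change was 0.21 over the 10 transporters and 0.09 over all genes. Since the directions differed, the signed median was -0.07, against -0.0036 over all genes. In whole cortex, fewer cells of a type and less RNA per cell cannot be told apart.

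**Figure D1:**
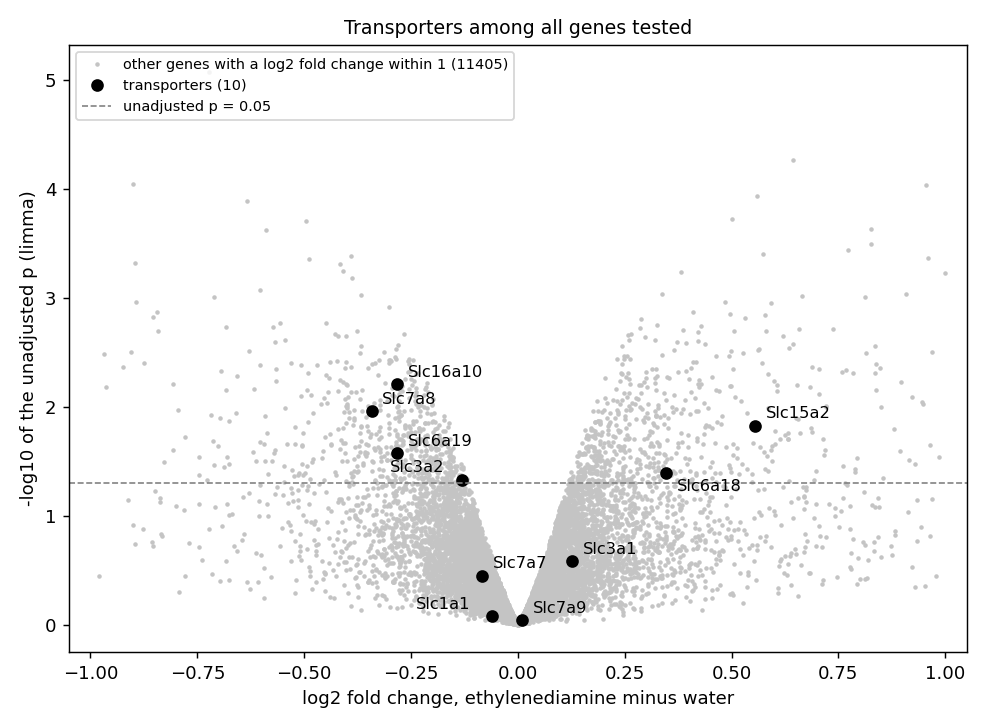
Unadjusted p from limma (vertical axis, -log10) against the log2 fold change, ethylenediamine minus water (horizontal axis), for the 10 transporters (black, named) among the other genes with a log2 fold change within 1 (grey). Slc15a2 and Slc6a18 lie above the dashed line, which marks the 0.05 level, on the higher side, and Slc16a10, Slc7a8, Slc6a19 and Slc3a2 on the lower side.

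The arrays lay on 2 slides, scanned on different days. Slide 1 held ethylenediamine replicate 1 and the 3 water arrays, and slide 2 held ethylenediamine replicates 2 and 3. A comparison free of the slide therefore rests on ethylenediamine replicate 1 alone, and is given beside the results as a value within slide 1. On the first principal component of all genes (30.5% of the variance) ethylenediamine replicates 1 to 3 stood at -3.56, 14.51 and 24.35. The water arrays stood at -13.17 to -10.26, so the 2 arrays of slide 2 lay furthest from them. On the second component (23.6%) ethylenediamine replicate 1 stood at -27.64, against 0.49 and 6.08 for the other treated arrays and 5.50 to 9.29 for the water arrays. With the slide as a fixed block, limma put 3 transporters lower at an unadjusted p under 0.05 (Slc16a10, Slc7a8 and Slc7a7) and 0 were higher, where 3.97% of all genes were lower and 3.66% higher, and 0 of the 10 passed the adjusted threshold.

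All 4 basolateral carriers had a negative log2 fold change, with a median of -0.21, and 3 of the 4 were lower at an unadjusted p under 0.05, as were 4.97% of all genes. Slc3a2, 1 of these 3, had an unadjusted p of 0.0922 by limma once the slide was a fixed block. Slc16a10 encodes TAT1, a uniporter that lets aromatic amino acids leave the cell. Its level was -0.22, -0.14 and -0.12 in ethylenediamine replicates 1 to 3, against 0.19, 0.02 and 0.15 in water replicates 1 to 3. Every treated array lay below every water array, and the gap between the groups was narrower than the span of the water arrays. Limma put the difference at -0.28 ± 0.07 log2 (SE, n = 3 per group; limma unadjusted p = 0.00615, adjusted p = 0.333), the smallest p of the 10. Within slide 1 the difference was -0.34, and with any 1 array left out the unadjusted p lay between 0.0042 and 0.0251.

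Slc7a8 encodes LAT2, the light chain that exchanges neutral amino acids across the basolateral membrane. The brighter of its probes read 4.82, 5.03 and 4.82 in ethylenediamine replicates 1 to 3, against 5.33, 5.10 and 5.28 in water replicates 1 to 3. The other probe read 2.80, 2.98 and 2.75 in the treated arrays, against 3.27, 3.05 and 3.17 in the water arrays. On both probes the groups did not overlap, with ethylenediamine replicate 2 the nearest to water. The log2 fold changes of the probes were -0.34 ± 0.09 and -0.32 ± 0.09 (SE, n = 3 per group; limma unadjusted p = 0.0115 and 0.0132, each probe tested alone). Within slide 1 the brighter probe differed by -0.41, and with any 1 array left out its unadjusted p in the fit of genes lay between 0.0062 and 0.0382.

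Slc3a2 encodes 4F2hc, the heavy chain that LAT2 and the Slc7a7 product share. It was measured at 4.49, 4.53 and 4.52 in ethylenediamine replicates 1 to 3, against 4.70, 4.61 and 4.63 in water replicates 1 to 3. The difference was small, at -0.13 ± 0.05 (SE, n = 3 per group; limma unadjusted p = 0.0466), and so was the spread, whose residual SD of 0.04 lay at percentile 5.17 of all genes. With every probe tested alone the unadjusted p of the same probe was 0.0569, and within slide 1 the difference was -0.16. Leaving out any 1 array took the unadjusted p above 0.05, to between 0.0631 and 0.136. Slc7a7 encodes y+LAT1, which exports cationic amino acids. Its levels of 2.33, 2.50 and 2.60 in the treated arrays overlapped those of 2.53, 2.60 and 2.55 in the water arrays. The log2 fold change of Slc7a7 was -0.08 ± 0.08 (SE, n = 3 per group), and the difference was -0.23 within slide 1, since ethylenediamine replicate 1 was its lowest array.

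**Figure D2:**
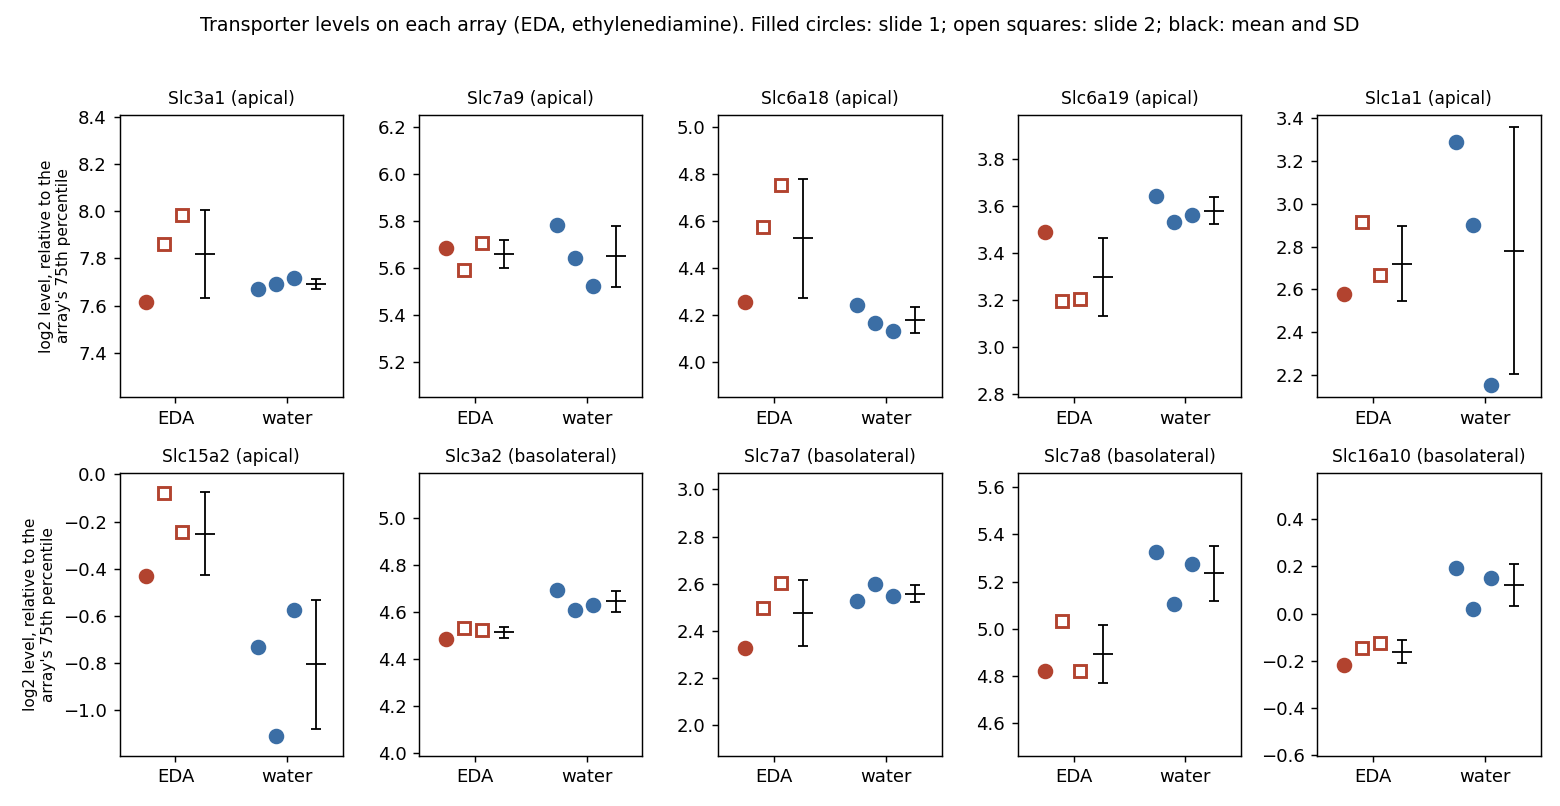
Level of the 10 transporters (brightest probe, log2 relative to the array's 75th percentile) on each ethylenediamine array (EDA, red) and each water array (blue). Circles are slide 1, squares slide 2, and the black bar is the mean with its SD (n = 3). The 3 treated arrays lie below the water arrays for Slc16a10, Slc7a8, Slc3a2 and Slc6a19, and above them for Slc15a2 and Slc6a18.

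The 6 apical transporters were mixed: 2 were higher and 1 was lower at an unadjusted p under 0.05, and 3 did not pass it. Over all genes, 5.39% were higher and 4.97% lower at that level. Opposite directions were seen in Slc6a18 and Slc6a19, which lie next to each other on chromosome 1 with 0 protein-coding genes between them. Slc6a19 encodes B0AT1, the main sodium-coupled carrier of neutral amino acids in the early proximal tubule. Slc6a18 encodes XT2, or B0AT3, a related neutral amino acid carrier of the later segments, studied mainly in mice. The stretches before their annotated starts are shown because neighbouring genes of one family differed in direction here. They run from 250 to 101 bases before the start, in GRCr8 (RefSeq), on the plus strand, chr1:31436403-31436552 for Slc6a18 and chr1:31414494-31414643 for Slc6a19. Capitals mark a match to the half-site of HNF1, a transcription factor of proximal tubule cells.
Slc6a18: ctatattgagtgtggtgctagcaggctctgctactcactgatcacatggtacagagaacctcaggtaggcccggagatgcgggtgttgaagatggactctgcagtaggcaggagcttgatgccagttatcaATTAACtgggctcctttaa
Slc6a19: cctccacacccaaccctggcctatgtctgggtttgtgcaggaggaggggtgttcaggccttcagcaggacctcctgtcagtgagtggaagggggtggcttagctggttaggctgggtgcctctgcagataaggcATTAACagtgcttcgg
This motif, GTTAAT, was 1 of 4 searched on both strands of the 250 bases before the start. Both genes held 1 match to it, in the reverse orientation, beginning at base 132 of the stretch shown for Slc6a18 and at base 135 of that for Slc6a19. They were the 2 of the 10 transporters with a match, and 6.45% of 33469 promoter windows of this length held one. Of the other motifs, the antioxidant response element TGACNNNGC was found in Slc3a1, Slc3a2 and Slc7a7 (3 of 10, against 10.1% of windows), and the nuclear receptor half-site AGGTCA in Slc16a10, Slc3a2, Slc7a7 and Slc7a9 (4 of 10, against 14.1%). The amino acid response element TGATGNAAN was found in 0 of 10, against 3.38% of windows. No matches to different motifs overlapped within a promoter. A match is a description of the letters and not a binding site.

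Slc6a19 stood at 3.49, 3.20 and 3.20 in ethylenediamine replicates 1 to 3, against 3.64, 3.53 and 3.56 in water replicates 1 to 3. The groups did not overlap, but replicate 1 of the treated rats was close to the water arrays. The log2 fold change was -0.28 ± 0.10 (SE, n = 3 per group; limma unadjusted p = 0.0264), and the difference was -0.09 within slide 1, -0.38 for replicate 2 and -0.37 for replicate 3. Slc6a18 has 3 probes. The brightest read 4.25, 4.58 and 4.75 in ethylenediamine replicates 1 to 3, against 4.24, 4.17 and 4.13 in water replicates 1 to 3. Here too the groups were parted by a narrow margin at replicate 1, with the 2 arrays of slide 2 well above the rest. The log2 fold change of this probe was 0.35 ± 0.13 and that of another 0.34 ± 0.12, while the dimmest of the 3 probes gave 0.07 ± 0.08 with overlapping groups (SE, n = 3 per group, each probe tested alone). Within slide 1 the brightest probe differed by 0.07, and the mean of the 3 probes over all 6 arrays by 0.25 (limma unadjusted p = 0.0597). Without any 1 of the 5 arrays other than ethylenediamine replicate 1, the unadjusted p of Slc6a18 was above 0.05, at 0.0657 to 0.103, and without ethylenediamine replicate 1 its log2 difference was 0.48. That of Slc6a19 was above 0.05, at 0.0591 to 0.0817, without water replicate 1 or 3 or ethylenediamine replicate 2 or 3. For both genes the difference on replicate 1 was the smallest of the 3 treated arrays, and the slide as a cause was not tested.

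**Figure D3:**
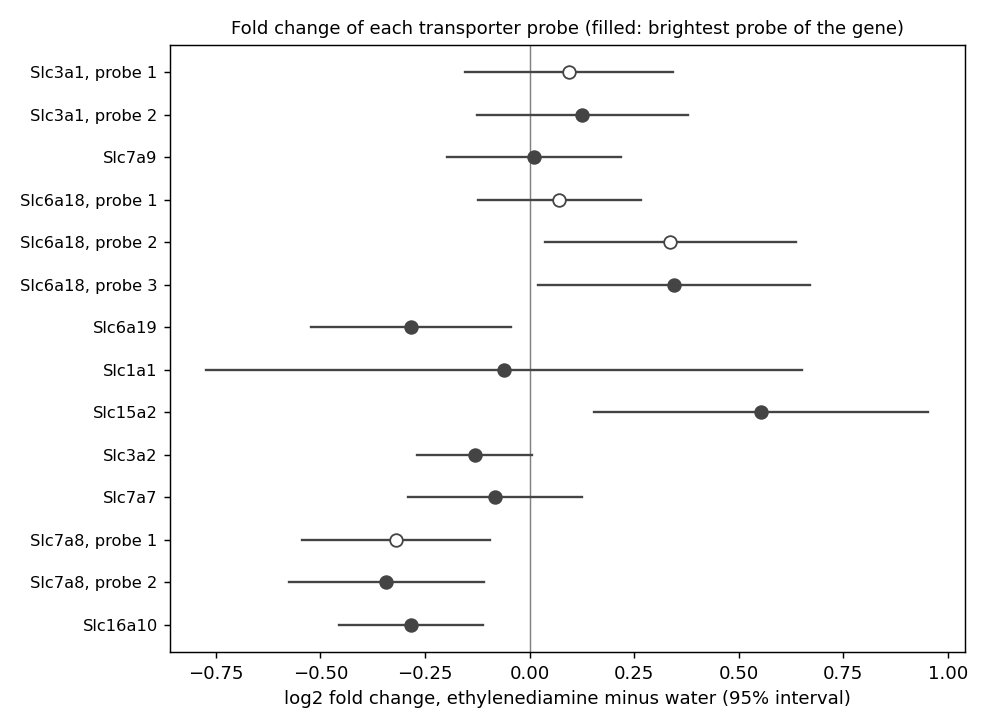
Log2 fold change, ethylenediamine minus water, of each of the 14 transporter probes with its 95% interval from limma (3 arrays per group). Filled points are the brightest probe of a gene. The 2 probes of Slc7a8 give nearly the same value, and probe 1 of Slc6a18 lies nearer to 0 than its other probes.

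Slc15a2 encodes PEPT2, the high-affinity proton-coupled carrier that takes up filtered di- and tripeptides in the late proximal tubule. It had the largest difference of the 10. Its level was -0.43, -0.08 and -0.24 in ethylenediamine replicates 1 to 3, against -0.73, -1.11 and -0.58 in water replicates 1 to 3. All 3 treated arrays lay above all 3 water arrays, although the water rats themselves spanned a wide range. The difference was 1.47-fold, or 0.55 ± 0.16 on the log2 scale (SE, n = 3 per group; limma unadjusted p = 0.0149, adjusted p = 0.377). Within slide 1 it was 0.38. Without water replicate 2, the lowest array, the log2 fold change was 0.40, and without ethylenediamine replicate 2 it was 0.47 at an unadjusted p of 0.0501 by limma.

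Slc3a1 and Slc7a9 encode rBAT and b0,+AT, the heavy and light chains of the apical cystine and dibasic amino acid exchanger. The brighter Slc3a1 probe read 7.61, 7.86 and 7.98 in ethylenediamine replicates 1 to 3, against 7.67, 7.69 and 7.72 in water replicates 1 to 3. The water rats were nearly identical, and the treated rats lay on both sides of them. The log2 fold change was 0.13 ± 0.10 (SE, n = 3 per group), that of the other probe was 0.09 ± 0.10, and the brighter probe differed by -0.08 within slide 1. Slc7a9 read 5.69, 5.59 and 5.71 in the treated arrays, against 5.78, 5.64 and 5.52 in the water arrays. Its difference of 0.01 ± 0.08 (SE, n = 3 per group; 95% interval -0.19 to 0.21) had no stable sign, being -0.02 under median scaling and 0.03 within slide 1. Slc1a1 encodes EAAC1, or EAAT3, the apical carrier of glutamate and aspartate. It varied more than any other of the 10, with a residual SD at percentile 93.5 of all genes. Slc1a1 read 2.58, 2.91 and 2.67 in ethylenediamine replicates 1 to 3, against 3.29, 2.90 and 2.16 in water replicates 1 to 3. The treated values lay inside the range of the water values, and the log2 fold change was -0.06 ± 0.29 (SE, n = 3 per group; 95% interval -0.78 to 0.66). It was 0.19 without water replicate 1, 0.01 without ethylenediamine replicate 1 and -0.20 within slide 1.

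Whether the chains of a heteromer, or a carrier and its chaperone, changed unequally was asked in 5 pairs, from the difference of the 2 log2 levels within each array. With 3 arrays against 3, the two-sided exact permutation test cannot go below p = 0.1. The heavy chain Slc3a2 minus the light chain Slc7a8 changed by 0.21 (exact permutation p = 0.2, adjusted over the 5 pairs 0.333), as Slc7a8 had the larger difference of the pair. Slc3a2 minus Slc7a7 changed by -0.05 (exact p = 0.6) and Slc3a1 minus Slc7a9 by 0.12 (exact p = 0.5). Cltrn encodes collectrin, which Slc6a18 and Slc6a19 need to reach the brush border in mice. Slc6a18 minus Cltrn changed by 0.34 and Slc6a19 minus Cltrn by -0.29 (exact p = 0.2 each, adjusted 0.333). Within slide 1 the 5 changes were 0.25, 0.07, -0.11, 0.03 and -0.13, in the order given here. No pair passed the threshold, which this design could not have reached.

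Across the 6 arrays, the genes whose pattern was most like that of Slc16a10, the transporter with the smallest p, were Rufy3 (Pearson's r 0.989, Spearman's rho 1), Emc6 (0.988 and 0.943) and Prorp (0.985 and 1). They are the highest over all other genes tested, on 6 arrays that share the treatment, so such values are a description. Among the transporters themselves, Slc16a10 was followed closely by Slc3a2 (r = 0.980) and Slc7a8 (r = 0.938). With the group means removed, r was 0.874 for Slc3a2 and 0.713 for Slc7a8. It was 0.838 for the apical Slc15a2, which had run against Slc16a10 over the 6 arrays (r = -0.579). The highest value with the group means removed joined the apical Slc3a1 and the basolateral Slc7a7 (r = 0.967), so these correlations did not follow the side of the cell. Slc6a18 followed Slc3a1 (r = 0.913, and 0.945 with the group means removed) and ran against Slc6a19 (r = -0.919, and -0.796). These correlations are over 6 arrays that share their scaling and slides.

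Of 33 other carriers of amino acids or peptides, 31 had a named probe and 21 were measured. Of these 21, 2 were higher and 1 was lower at an unadjusted p under 0.05, against 5.39% and 4.97% of all genes, and 0 passed the adjusted threshold by limma. Their median log2 fold change was 0.09. Slc43a2 encodes LAT4, a basolateral uniporter of branched-chain and other large neutral amino acids. Its level was 3.57, 3.59 and 3.33 in ethylenediamine replicates 1 to 3, against 4.01, 3.88 and 3.87 in water replicates 1 to 3. On this brightest probe the groups were well parted, at a log2 difference of -0.42 ± 0.09 (SE, n = 3 per group; limma unadjusted p = 0.00378, adjusted p = 0.329) and -0.35 within slide 1. The mean of its kept probes differed less, by -0.30 (limma unadjusted p = 0.0208). The glycine carrier Slc6a9 stood at 0.69 ± 0.21 and the small neutral amino acid carrier Slc7a10 at 2.39 ± 0.67, with 0.49 and 1.82 within slide 1. Once the slide was a fixed block, their unadjusted p by limma was 0.161 and 0.119. Slc7a10 was well above background on all 3 treated arrays but on only 1 of 3 water arrays, so the size of its difference is uncertain. With another background correction (normexp) it was 0.77. Slc7a10, 1 of the 2 counted as higher, was kept through the treated arrays alone, where it is high.

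Of 9 genes that respond to amino acid shortage through ATF4, limma put 1 higher and 1 lower at an unadjusted p under 0.05. The shares of all genes at that level were 5.39% higher and 4.97% lower. The asparagine synthetase Asns stood at 0.36 ± 0.14 with overlapping groups, and Phgdh, the first enzyme of serine synthesis, at -0.22 ± 0.08. Within slide 1 Asns stood at 0.34 and Phgdh at -0.07, and neither passed an unadjusted p of 0.05 there or with the slide as a fixed block (limma p of 0.0872 and 0.163 for Asns, and 0.378 and 0.439 for Phgdh). The median of these 9 genes was -0.07.

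Markers of the early and late segments of the proximal tubule were mixed in direction. All 7 early segment markers were well above background on the 6 arrays. Their summed linear level, in units of the array's 75th percentile, was 943 to 956 in the treated arrays and 969 to 988 in the water arrays. Of the 7, 3 had a positive and 4 a negative log2 fold change. The groups did not overlap for Slc22a6 on the higher side (0.02), or for Lrp2 and Slc5a2 (-0.14) on the lower. These were 1 and 2 of the 7, against 9.2% and 8.27% of all genes. The endocytic receptor Lrp2 was the 1 of the 7 past an unadjusted p of 0.05, at -0.19 ± 0.06 (SE, n = 3 per group). Within slide 1 it stood at -0.13, and the mean of its kept probes over all 6 arrays at -0.16 (limma unadjusted p = 0.137). Slc22a6 and Slc5a2 are named after their values were seen. Of the 3 late segment markers, 2, named here after their values were seen, varied widely among the treated arrays. Slc7a13, a carrier of the late proximal tubule in rodents that is also 1 of the 21 other carriers above, read 2.26, 5.27 and 5.75 in ethylenediamine replicates 1 to 3, against 2.87, 2.99 and 3.90 in water replicates 1 to 3. Slc22a7, an organic anion carrier well above background on 2 of 3 treated and 3 of 3 water arrays, read -4.42, -1.02 and -1.08 in the treated arrays, against -3.78, -4.26 and -2.75 in the water arrays. Both were lowest in ethylenediamine replicate 1 and highest in replicates 2 and 3, the arrays of slide 2. The log2 fold changes were 1.18 ± 0.94 for Slc7a13 and 1.43 ± 1.00 for Slc22a7, and the differences within slide 1 were -0.99 and -0.82. The third marker, the glucose carrier Slc5a1, was lower, at -0.40 ± 0.10 (SE, n = 3 per group; limma unadjusted p = 0.00936, adjusted p = 0.353). Its groups did not overlap, and within slide 1 it stood at -0.28. It was the 1 of the 3 late markers past an unadjusted p of 0.05, where 4.97% of all genes were lower at that level.

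Slc6a18 and Slc3a1, which belong to the later segments, were likewise highest in ethylenediamine replicates 2 and 3 and lowest of the treated arrays in replicate 1. Slc15a2 shared that order. In replicate 1, the difference from the water mean was 0.38 for Slc15a2, 0.07 for Slc6a18 and -0.08 for Slc3a1. The summed level of the 3 late segment markers was 5.11, 39.5 and 54.6 in ethylenediamine replicates 1 to 3, against 7.76, 8.28 and 15.3 in water replicates 1 to 3. Slc7a13, the brightest of the 3, made up nearly all of this sum, and Slc5a1, which was lower, hardly enters it. The part of these segment markers in the results for Slc6a18, Slc3a1 and Slc15a2 was not tested. The basolateral Slc16a10, Slc3a2 and Slc7a7 were also lowest of the treated arrays in replicate 1. Slc16a10, Slc3a2, Slc7a8 and Slc43a2 were below every water array in all 3 treated arrays. Slc43a2 is named because it had the smallest p of the 21 other carriers. Of those 21, 15 had a positive and 6 a negative log2 fold change, so it does not stand for them.

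**Figure D4:**
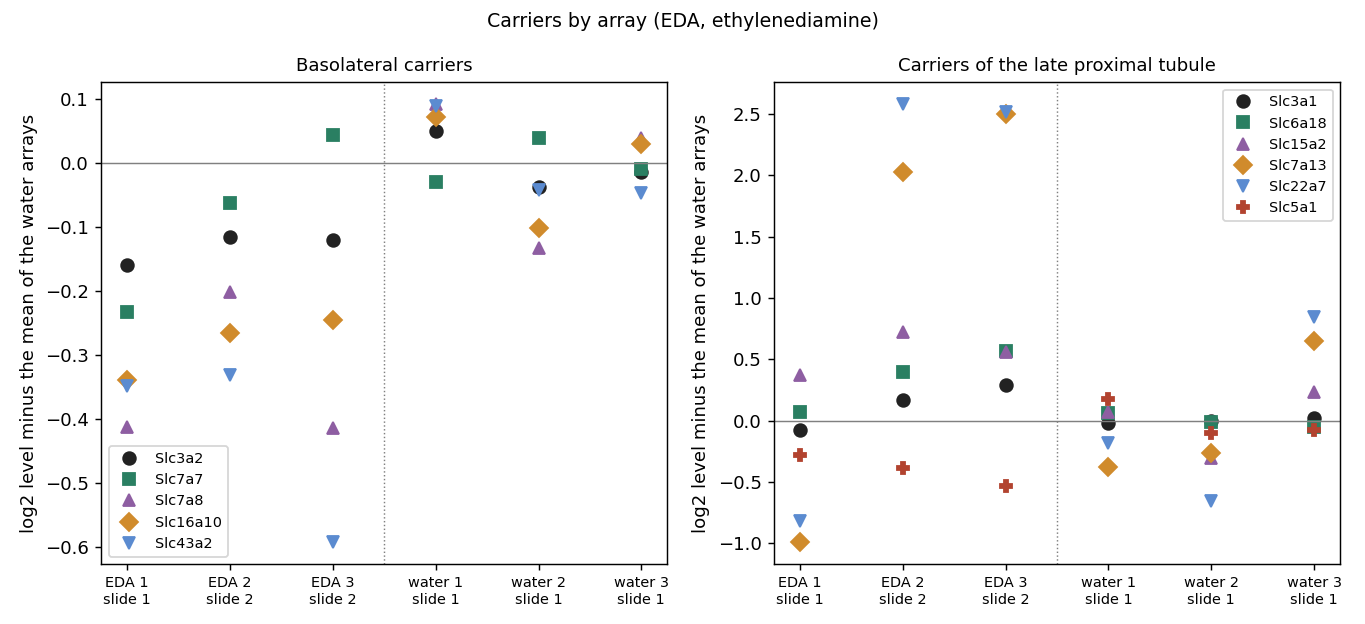
Log2 level minus the mean of the water arrays, on each ethylenediamine array (EDA) and each water array, with its slide. Left, 5 basolateral carriers, of which Slc43a2 was picked from the other carriers by its p. Slc3a2, Slc7a8, Slc16a10 and Slc43a2 lie below every water array in all 3 treated arrays. Right, 6 carriers of the late proximal tubule, of which Slc7a13 and Slc22a7 lie below water in EDA 1 and far above it in EDA 2 and EDA 3.

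Markers of other cells of the cortex were measured on the same arrays. The summed level of 4 markers of collecting duct principal cells was 111 to 132 in treated and 150 to 184 in water arrays, and that of 4 intercalated cell markers 115 to 133 in treated and 147 to 182 in water arrays. For the 3 measured of 4 distal convoluted tubule markers it was 16.7 to 24.6 in treated and 24.2 to 29.9 in water arrays, and for 4 thick ascending limb markers 277 to 348 in treated and 214 to 308 in water arrays. For 4 podocyte markers it was 9.18 to 13.0 in treated and 10.2 to 12.9 in water arrays, for 4 endothelial markers 28.9 to 36.6 in treated and 36.0 to 38.7 in water arrays, and for the 2 measured of 4 leukocyte markers 2.12 to 2.48 in treated and 2.03 to 2.79 in water arrays. These sums are led by the brightest markers, and the single markers below are named after their values were seen. Of the principal cell markers only the water channel Aqp2 was lower at an unadjusted p under 0.05, at -0.57 ± 0.13, while the other 3 had overlapping groups. Of the thick limb markers Umod, or uromodulin, stood at 0.25 ± 0.17 and the other 3 between -0.10 and -0.02, all with overlapping groups. Of the distal convoluted tubule markers, Calb1 (-0.89 ± 0.15) and Trpv5 (-0.44 ± 0.13) had groups that did not overlap. The brighter Slc12a3 (-0.35 ± 0.17) had overlapping groups. Of the intercalated cell markers, Atp6v1g3 (-0.43 ± 0.08) and Slc26a4 (-0.48 ± 0.13) did not overlap, while Foxi1 (-0.32 ± 0.17) and Slc4a1 (-0.003 ± 0.10) did. Groups lay apart on the lower side for 2 of 3 distal and 2 of 4 intercalated markers, and for 8.27% of all genes. Over all genes, 4.97% passed the unadjusted level of 0.05 on the lower side, against 1 of 4 principal cell markers. LAT2 and 4F2hc are also made outside the proximal tubule, and the part of these other cells in the results for Slc7a8 and Slc3a2 was not tested. The tubular injury marker Havcr1 stood at -3.71, -2.26 and -1.95 in ethylenediamine replicates 1 to 3, against -5.22, -5.33 and -5.06 in water replicates 1 to 3, near the background there.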

How the data were processed

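Cortex RNA of 6 rats was measured on 1-colour Agilent arrays. Per the file headers, the deposited intensity of each spot is linear and was corrected for background and spatial trend within its array by Agilent Feature Extraction 10.7.1.1, on a probe grid of build rn4. Another deposited table, of processed intensity, matched these values divided by a 75th percentile of the array. That scaling was judged from the values and is not given in the sources used here. Its column medians were 0.1062, 0.1104 and 0.1071 for ethylenediamine replicates 1 to 3, and 0.1076, 0.1053 and 0.1046 for water replicates 1 to 3. It served as an alternative.

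Here log2 intensity minus the array's 75th percentile was used. Control spots (1439) and 22 probes with an outlier flag were left out. Symbols came from RefSeq accessions through an annotation of another assembly (GRCr8). Probes well above background on all 3 arrays of a group were kept (37822), and the brightest probe stood for each gene (11530 genes). Tests used limma 3.58.1 (lmFit and eBayes, R 4.3.3), checked on simulated data, with no covariate and Benjamini-Hochberg adjustment over all genes tested (threshold 0.05). SE and 95% intervals are those of that fit. The number of arrays limits the precision. The labels give separate animals.

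The transporters, lists, roles and the rule for named genes were chosen with earlier results of these data known. That rule took all 10 transporters, up to 3 genes of each of 5 other lists with the smallest unadjusted p under 0.05 or else the 1 with the smallest p, Havcr1, and the 3 genes most like the transporter with the smallest p. A result that this rule names is not reported here. Alternatives covered background, scaling, filters, probe choice, moderation, weights, slide, replicate numbers and each array left out. The scanner files hold no mean signal, so normexp used the median signal. Same-numbered arrays did not deviate together (r of 0.00, 0.02 and -0.01), so the numbers were not taken to pair animals.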

Additional observations from a re-analysis of the deposited data

How the results depend on the processing

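Over the 19 alternatives 0 of the 10 transporters passed the adjusted threshold by limma, and Slc3a2, Slc7a7, Slc7a8, Slc16a10, Slc6a18, Slc6a19 and Slc15a2 kept their sign in all 19. Some of these settings, such as robust moderation, an intensity trend and the replicate block, cannot change a log2 difference. The slide as a fixed block and the fit within slide 1 give the same difference. The 19 are therefore not separate checks of a sign. Log2 differences ran from -0.34 to -0.25 for Slc16a10, from -0.41 to -0.30 for Slc7a8, from 0.07 to 0.48 for Slc6a18, from -0.38 to -0.09 for Slc6a19 and from 0.38 to 0.67 for Slc15a2. The number of transporters higher at an unadjusted p under 0.05, 2 as reported, was 1 with no filter on dim probes, 1 with the mean of a gene's probes, 0 with the slide as a fixed block and 0 within slide 1. It ran from 0 to 3 with each array left out, and the number lower, 4 as reported, from 2 to 3. It was 0 higher and 2 lower without ethylenediamine replicate 2, and 3 and 3 without ethylenediamine replicate 1.

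Signs turned for values near 0. Slc7a9 was -0.018 under median scaling and ran from -0.053 to 0.077 with each array left out. Slc1a1 was 0.086 with array weights and ran from -0.37 to 0.19. Both with the slide as a fixed block and within slide 1, Slc3a1 was -0.079 (its other probe -0.061), the dimmest Slc6a18 probe -0.055, Slc7a13 -0.99 and Slc22a7 -0.82. These slide values are ethylenediamine replicate 1 minus the water mean. Within slide 1 the pair Slc3a1 minus Slc7a9 changed by -0.11 and Slc3a2 minus Slc7a7 by 0.072, and Slc3a2 minus Slc7a7 ran from -0.11 to 0.010 with each array left out. Causes were not tested.

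Over all genes, the count past the adjusted threshold was 0 as reported, 1 with an intensity trend, 10 with the slide as a block, 6 within slide 1 and 0 to 1 with each array left out. Over all probes it was 4 as reported, 76 with the slide as a block, 7 with normexp and 1 to 9 with each array left out. With the replicate number as a block it was 0 genes and 0 probes, with 1 transporter higher and 3 lower at an unadjusted p under 0.05. The normexp alternative used the median signal because no mean signal was given. The fits within slide 1 and with the slide as a block rest on 1 treated array, assumed to vary like the others.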
